A study of Mus musculus with 4 samples.

Results

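Imprinted genes are expressed mainly from the allele of 1 parent. Here 10 protein-coding genes of this kind, grouped as imprinted genes of brain, were followed in Bcas1 knockout mice. The 10 genes are Peg3, Ndn, Snrpn, Plagl1, Zim1, Grb10, Impact, Nnat, Dlk1 and Magel2. They were chosen by name, and every probe set assigned to 1 of these names alone was kept, which gave 28 of the 45037 probe sets tested, for 10 of 18193 genes. Total brain RNA came from 2 mice labelled BCAS1 KO and 2 labelled wildtype, all males of the C57BL/6 background aged 8 to 9 weeks and bred from heterozygous parents. Each mouse gave 1 array of Affymetrix 3' expression probe sets. The labels name the tissue as brain and, in the sample descriptions, as cerebrum. How the Bcas1 gene was disrupted, and whether the mice were littermates, is not stated by the labels.

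Imprinting rests on DNA methylation that is laid down in the egg or the sperm and kept on that parent's chromosome after fertilisation, so that 1 of the gene copies stays silent. Many imprinted genes act in growth, in feeding and in maternal behaviour, and several are strongly expressed in neurons and in the hypothalamus. In mice, loss of imprinting at such a gene changes its dosage, but an array of total RNA reads both alleles together. The levels below therefore say nothing about which allele was expressed.

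All levels are RMA values on the log2 scale, in which 1 unit is a doubling of signal. A probe set is called bright or dim here by whether its mean level over the 4 arrays lay above or below the median probe set of the table, at 6.49. No detection calls were used here, so a dim level cannot be separated from background. Levels of different probe sets depend on their probes, so a rank in the table describes signal and not which gene had more RNA.

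The array medians ran from 6.49 to 6.51, and the arrays correlated at 0.996 to 0.998 across probe sets. The brightest Bcas1 probe set measured 11.05 and 10.75 in the knockout arrays, against 12.17 and 12.21 in the wild-type arrays, a difference of -1.29 (SE 0.12) that did not pass the threshold in limma (adjusted p = 0.742). For its 2 dim probe sets the difference was 0.77 (SE 0.18) and 0.64 (SE 0.15), and it is not known here which of the 3 read sequence that the knockout removed. Neuronal markers were bright in every array, with Snap25, a synaptic fusion protein, at 14.18 and 14.06 in the knockout and 14.15 and 14.17 in wild type. All 10 measured cerebellar markers were bright as well, with Pcp2 of Purkinje cells, named after its values were seen, at 11.50 and 11.61 in the knockout and 11.56 and 11.51 in wild type. Cerebellar transcripts were thus read in all 4 arrays, beside the cerebrum that the descriptions name. The second knockout array stood apart in markers of nasal mucosa: a list of 11 measured genes averaged 6.00 and 7.59 in the knockout arrays, against 5.99 and 6.11 in the wild-type arrays.

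None of the 10 imprinted genes passed the test for a difference between the genotypes. Past an adjusted p of 0.05 (limma, Benjamini-Hochberg over all probe sets), 0 of the 28 were called in either direction, each having an adjusted p of 1, where 0% of all probe sets were called higher and 0.00444% lower. By brightest probe set, 0 of the 10 genes were called, where 0% of all genes were called higher and 0.0055% lower. Every gene of the pathway and marker lists read below also had an adjusted p of 1, so its values are given without a p. Before adjustment, a p under 0.05 was reached in limma by 1 of the 28, the Zim1 probe set, which was higher, against 1.82% of all probe sets higher and 1.61% lower. Counted by genes this was 1 of 10, against 1.68% of all genes higher and 1.07% lower. The differences of the 28 ran from -0.19 to 0.28 with a median of 0.045, and the median of all probe sets was 0. By the brightest probe set of each gene, 7 genes were higher in the knockout arrays, 1 was lower and 2 had equal means, with a median of 0.058, against 0.0050 over all genes.

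The unadjusted 95% intervals of limma give a range for the change of each probe set taken alone, at 2 mice per genotype. Over the brightest probe sets the intervals stayed between 0.849-fold and 1.42-fold of the wild-type level, and over all 28 between 0.719-fold and 1.43-fold. These intervals do not bound all the probe sets jointly, and they hold for RMA signal, which compresses fold changes of dim probe sets. With 2 against 2 arrays an exact permutation test of 1 probe set cannot give a two-sided p below 0.333.

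**Figure D1:**
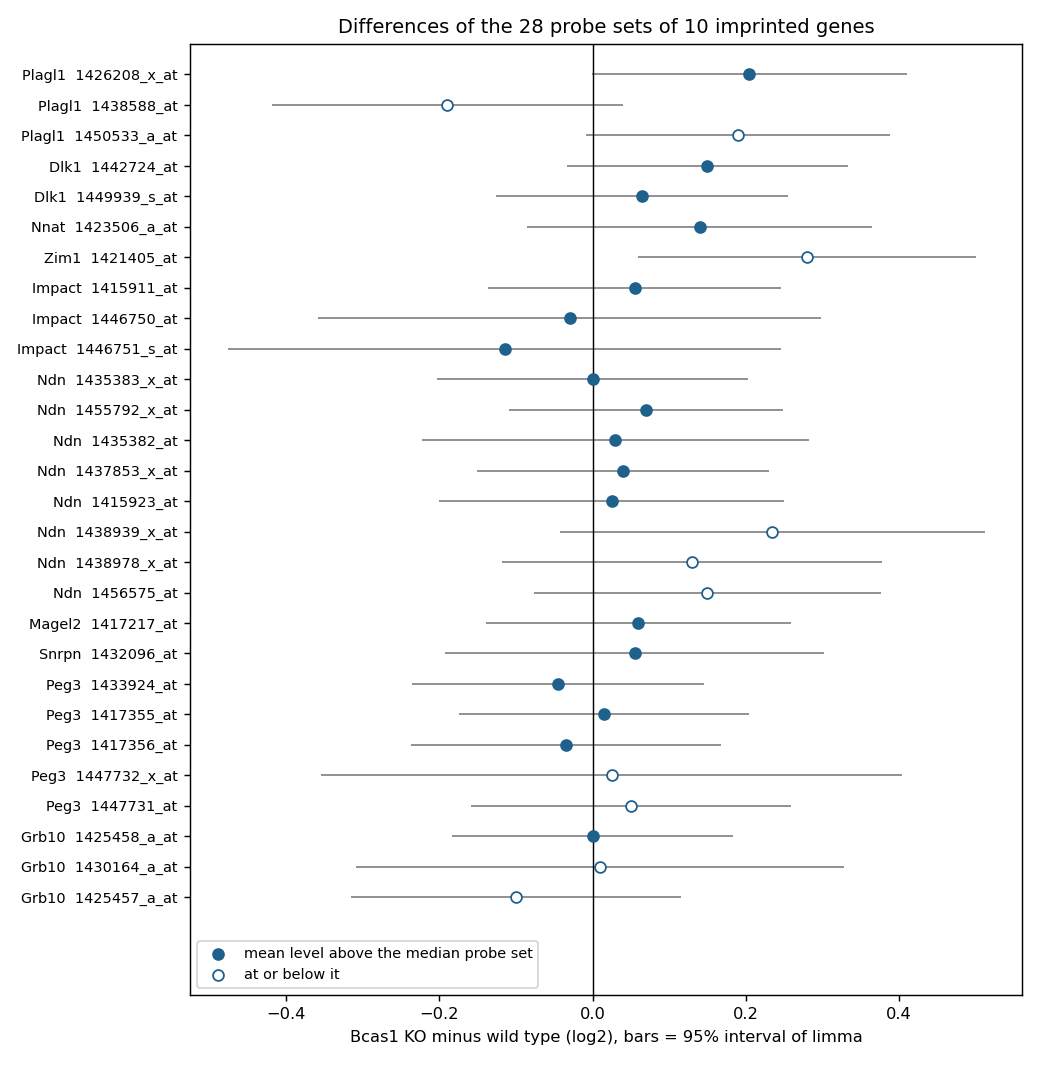
Difference between Bcas1 knockout and wild type on the log2 scale (x axis) for each of the 28 probe sets of the 10 imprinted genes (y axis, with probe set name), n = 2 mice per genotype. Points are differences of means, bars are unadjusted 95% intervals of limma, and open points are dim probe sets; the differences lie between -0.19 and 0.28, and 1 interval, that of Zim1, leaves out 0.

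Separation of the arrays by genotype was seen for some of the genes. In 10 of the 28 probe sets both knockout arrays lay above both wild-type arrays, which is 35.7%, against 13.9% of all probe sets. In 1 of the 28 both lay below, which is 3.57%, against 13.2% of all probe sets. In either direction 27.1% of all probe sets were separated. Probe sets of 1 gene were read from the same mice and can read the same transcript, so they are not separate observations. By the brightest probe set, 5 of the 10 genes (Plagl1, Dlk1, Nnat, Zim1 and Impact) were separated upward and 0 downward, against 15.5% of all genes upward, 12.8% downward and 28.3% in either direction. This is a description of 4 arrays and was not tested as a group.

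**Figure D2:**
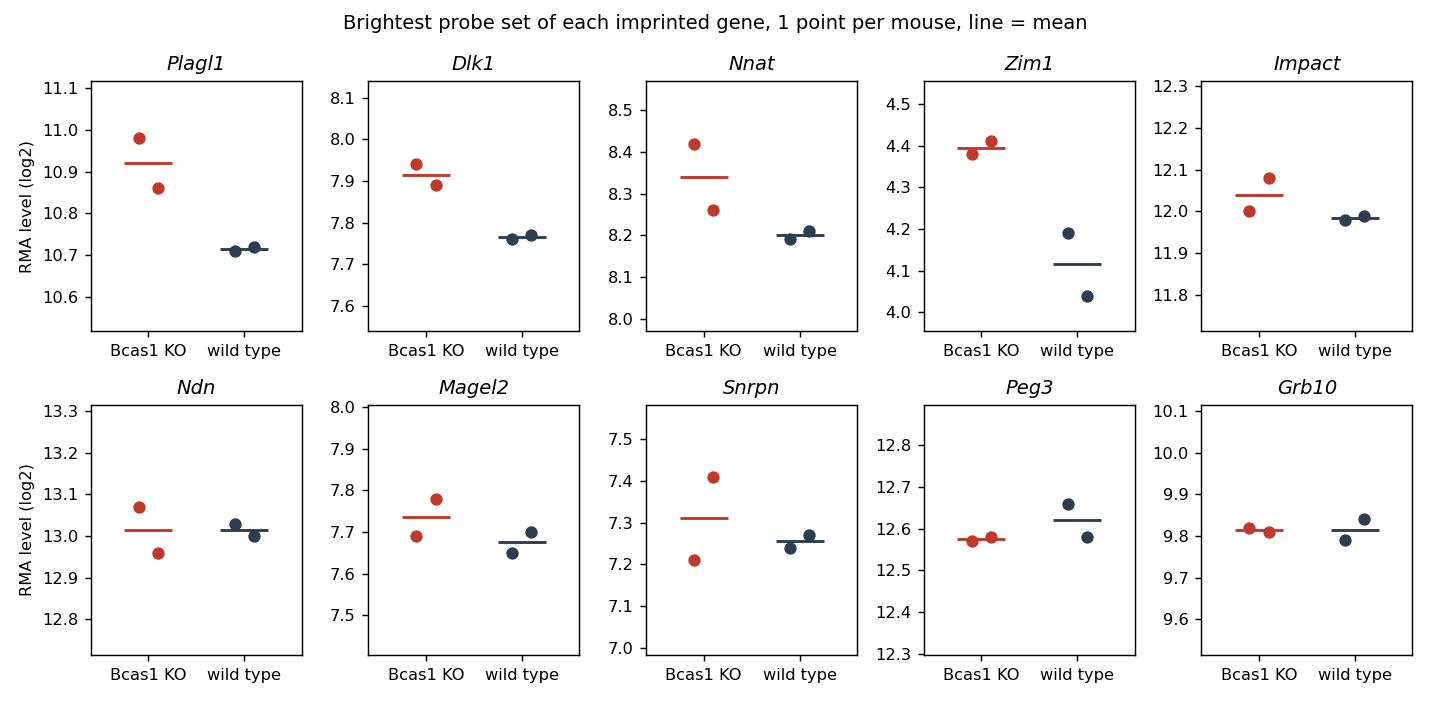
RMA level on the log2 scale (y axis, the same span in every panel and not starting at 0) of the brightest probe set of each imprinted gene in the Bcas1 knockout mice (left) and the wild-type mice (right). Each point is 1 mouse and each line the mean of 2; the genotypes are separated for Plagl1, Dlk1, Nnat, Zim1 and Impact and overlap for Ndn, Magel2, Snrpn, Peg3 and Grb10.

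The stretches of genome around the transcription starts of the 4 genes with the largest differences by brightest probe set are printed to show how they vary in CpG dinucleotides, the sites of DNA methylation. The sequences are those of RefSeq on assembly GRCm38.p6, from 250 bases before to 50 bases after the start, written 5′ to 3′ on the strand of the gene, with each CpG (the letters CG, which read the same on both strands) in capitals.
Plagl1, chr10:13090582-13090881, plus strand: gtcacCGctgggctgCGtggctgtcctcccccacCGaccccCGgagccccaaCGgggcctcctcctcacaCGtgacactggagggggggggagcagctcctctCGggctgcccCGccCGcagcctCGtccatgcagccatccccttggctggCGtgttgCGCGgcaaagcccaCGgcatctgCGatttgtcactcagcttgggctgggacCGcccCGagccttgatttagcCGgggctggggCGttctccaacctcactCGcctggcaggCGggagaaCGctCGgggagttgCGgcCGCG
Zim1, chr7:6696383-6696682, minus strand: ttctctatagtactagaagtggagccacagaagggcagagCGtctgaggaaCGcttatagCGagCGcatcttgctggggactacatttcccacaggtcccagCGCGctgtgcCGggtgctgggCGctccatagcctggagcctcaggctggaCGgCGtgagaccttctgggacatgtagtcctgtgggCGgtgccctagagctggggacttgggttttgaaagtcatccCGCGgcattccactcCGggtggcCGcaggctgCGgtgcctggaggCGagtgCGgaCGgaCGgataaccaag
Nnat, chr2:157559828-157560127, plus strand: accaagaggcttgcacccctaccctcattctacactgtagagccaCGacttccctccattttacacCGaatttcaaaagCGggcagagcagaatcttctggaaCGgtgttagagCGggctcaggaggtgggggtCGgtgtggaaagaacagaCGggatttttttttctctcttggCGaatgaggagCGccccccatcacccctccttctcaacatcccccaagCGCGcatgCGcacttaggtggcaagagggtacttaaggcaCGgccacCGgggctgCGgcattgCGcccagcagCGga
Dlk1, chr12:109452573-109452872, plus strand: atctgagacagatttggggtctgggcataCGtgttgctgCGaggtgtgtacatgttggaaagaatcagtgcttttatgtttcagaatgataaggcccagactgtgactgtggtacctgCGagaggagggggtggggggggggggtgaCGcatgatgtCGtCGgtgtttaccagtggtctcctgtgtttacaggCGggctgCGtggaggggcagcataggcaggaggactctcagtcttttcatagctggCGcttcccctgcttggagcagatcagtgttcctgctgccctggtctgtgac
The windows hold 26 CpG in Plagl1, 20 in Zim1, 17 in Nnat and 9 in Dlk1. At least as many were found in 16.9%, 26.5%, 31.4% and 45.8% of 32841 such windows in the genome, in that order, and 94.6% of windows hold at least 1. Of the remaining members, Peg3 has 13, Ndn 11 and Magel2 10, the 2 starts of Grb10 have 45 and 9, and the 4 starts of Snrpn have 2 to 7. The median was 10 over the 13 windows of 9 genes, and 7 over all windows. Impact was left out of the member windows, so that median does not cover all members. Methylation was not measured in this study, so the counts describe the sequence alone.

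Plagl1, also called Zac1, encodes a zinc-finger transcription factor of chromosome 10 that is expressed from the paternal allele and regulates other imprinted genes in the mouse. Its brightest probe set, 1426208_x_at, measured 10.98 and 10.86 in the knockout arrays, against 10.71 and 10.72 in the wild-type arrays. Both knockout arrays lay above both wild-type arrays, by a difference of 0.21 (SE 0.079), or 1.15-fold. The ending x_at marks a set in which some probes can match other transcripts. The dim probe set 1450533_a_at was separated in the same direction, at 6.14 and 6.24 in the knockout and 5.99 and 6.01 in wild type, a difference of 0.19 (SE 0.076). The dim probe set 1438588_at was separated the other way, at 6.37 and 6.25 in the knockout and 6.44 and 6.56 in wild type, a difference of -0.19 (SE 0.088). The 3 Plagl1 probe sets therefore did not give 1 direction. With any 1 array left out the difference of the brightest ran from 0.15 to 0.27, where its sign was fixed by the separation.

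Plagl1 is known from mice as a regulator of growth genes such as Igf2 and Cdkn1c, and relatives and network genes were read beside it. Of 11 measured genes in that list 0 passed the test in either direction, and the median difference was 0.030. Igf2, a growth factor expressed from the paternal allele in most tissues, measured 10.40 and 10.38 in the knockout arrays, against 10.10 and 10 in the wild-type arrays, a difference of 0.34 (SE 0.076). Cdkn1c, a growth inhibitor expressed from the maternal allele and named after its values were seen, measured 8.04 and 7.95 in the knockout and 8.04 and 7.99 in wild type, a difference of -0.020 (SE 0.076) with overlapping genotypes. Plag1, a relative of Plagl1, was at 0.25 (SE 0.11) from a dim level, the cell-cycle inhibitor Cdkn1a at 0.28 (SE 0.20) and the hydrolase-like Mest at -0.095 (SE 0.072). Igf2 is a known product of the meninges and the choroid plexus in adult brain, and markers of meningeal fibroblasts lay in the same direction. All 12 measured meningeal markers, Igf2 itself included, had positive differences, with a median of 0.22 and 0 past the threshold. Their mean level was 8.76 and 8.92 in the knockout arrays, against 8.56 and 8.64 in the wild-type arrays, with Fmod, a matrix proteoglycan chosen after its values were seen, at 0.41 (SE 0.097). A positive sign in every measured marker was not particular to the meninges, since all 12 vessel and all 9 blood markers had it. The median was 0.063 for vessels and 0.22 for blood, in which only 2 markers were bright. Both knockout arrays lay above both wild-type arrays in 8 meningeal, 5 vessel and 6 blood markers, against 15.5% of all genes. Among cortical neuron and cerebellar markers 4 of 11 and 4 of 10 had positive differences. In bulk RNA more cells of a type and more RNA per cell cannot be told apart. The part of meningeal tissue in the Igf2 or Plagl1 difference was not tested.

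Dlk1 encodes a transmembrane protein with EGF-like repeats, related to Notch ligands and expressed from the paternal allele on chromosome 12. Its brighter probe set, 1442724_at, measured 7.94 and 7.89 in the knockout arrays, against 7.76 and 7.77 in the wild-type arrays. The genotypes did not overlap, and the difference was 0.15 (SE 0.070), or 1.11-fold. The second probe set, 1449939_s_at, measured 6.82 and 6.76 in the knockout and 6.75 and 6.70 in wild type, a difference of 0.065 (SE 0.073) in which the groups were apart by 1 step of the rounding. Dlk1 was thus the 1 gene with several probe sets, all bright and all separated upward.

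Meg3, the noncoding RNA expressed from the maternal copy of the same imprinted domain, did not share that separation. It measured 12.64 and 12.26 in the knockout arrays, against 12.75 and 12.49 in the wild-type arrays, a difference of -0.17 (SE 0.16) with overlapping genotypes. Of 19 measured genes of Notch receptors, ligands, proteases and targets 0 passed, 12 had positive and 7 negative differences, and the median was 0.045. The target Hey2 was at -0.19 (SE 0.089), the protease Adam17 at 0.20 (SE 0.096), the receptor Notch4 at -0.16 (SE 0.10) and the ligand Jag2 at 0.095 (SE 0.082). Dlk1 is also made in the pituitary, and the 9 measured pituitary markers averaged 5.45 and 5.65 in the knockout arrays, against 5.39 and 5.45 in the wild-type arrays. Of these markers 6 had positive and 3 negative differences, with a median of 0.065, and only 1, Gh, was bright. Gh, growth hormone, measured 6.88 and 7.53 in the knockout and 6.44 and 6.55 in wild type. Its difference of 0.71 (SE 0.22) was the largest of that list. The 2 knockout arrays were close in Dlk1 (SD 0.035), so their order in Dlk1 and in Gh is not read as a result. The part of pituitary tissue in the Dlk1 difference was not tested.

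Nnat encodes neuronatin, a small membrane protein of the endoplasmic reticulum, expressed from the paternal allele and lying inside the gene Blcap on chromosome 2, the chromosome that also carries Bcas1. Its 1 probe set, 1423506_a_at, measured 8.42 and 8.26 in the knockout arrays, against 8.19 and 8.21 in the wild-type arrays. The genotypes did not overlap, at a difference of 0.14 (SE 0.086), or 1.10-fold. The first knockout array gave most of it: without that array the difference was 0.060, and without the second it was 0.22. Neuronatin resembles the inhibitors of the calcium pumps of the endoplasmic reticulum, and of 12 measured genes of pumps, their inhibitors and calcium channels 0 passed. Their median difference was 0.040, with the channel Ryr1 at 0.12 (SE 0.094), the pump inhibitor Pln at -0.11 (SE 0.093), the pump Atp2a1 at 0.080 (SE 0.082) and the calcium sensor Stim1 at 0.060 (SE 0.076).

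Peg3 and Zim1 are neighbouring zinc-finger genes of 1 imprinted domain on chromosome 7, and the domain's members are read from opposite parental copies, Peg3 from the paternal and Zim1 from the maternal. Peg3 acts in growth and maternal behaviour in mice. Its brightest probe set, 1433924_at, measured 12.57 and 12.58 in the knockout arrays, against 12.66 and 12.58 in the wild-type arrays. The genotypes overlapped, at a difference of -0.045 (SE 0.073). The bright probe set 1417355_at measured 11.53 and 11.46 in the knockout and 11.47 and 11.49 in wild type, and 1417356_at measured 9.88 and 9.93 in the knockout and 9.89 and 9.99 in wild type. Their differences of 0.015 (SE 0.072) and -0.035 (SE 0.077) were smaller than their SEs. The unadjusted 95% intervals of the 3 bright sets, each taken alone, lay between -0.24 and 0.20. The 2 dim Peg3 probe sets, at mean levels of 2.71 to 3.08, differed by 0.050 and 0.025 near the bottom of the table.

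Zim1 had the largest difference of the 10 genes, from a dim level. Probe set 1421405_at measured 4.38 and 4.41 in the knockout arrays, against 4.19 and 4.04 in the wild-type arrays. The genotypes did not overlap, at a difference of 0.28 (SE 0.084), or 1.21-fold, with an unadjusted p of 0.023. Only 16.5% of probe sets had a mean level as low, and it is the 1 probe set of the gene here. Usp29, the next protein-coding gene beside Peg3 and named for its position after its values were seen, measured 8.45 and 8.38 in the knockout and 8.36 and 8.47 in wild type, with equal means. Zim3, a further gene of the domain and named likewise, was at 0.035 (SE 0.072) from a dim level with overlapping genotypes. Among the probe sets of Peg3, Zim1, Usp29 and Zim3 read here, only that of Zim1 was separated.

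Ndn, Magel2 and Snrpn lie in the imprinted domain of mouse chromosome 7 that corresponds to the Prader-Willi region in humans, and all are expressed from the paternal allele. Ndn encodes necdin, a MAGE-family protein of neurons that have left the cell cycle, and it was read by 8 probe sets. The brightest, 1435383_x_at, measured 13.07 and 12.96 in the knockout arrays, against 13.03 and 13 in the wild-type arrays, with equal means. The other 4 bright sets had differences of 0.025 to 0.070, and 1 of them, 1455792_x_at, was separated, at 13.04 and 13.05 in the knockout and 12.98 and 12.97 in wild type. That separation was not shared by the other 4 bright sets, in which the genotypes overlapped.

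In 3 of the bright Ndn sets the knockout mice lay on either side of both wild-type mice. Probe set 1435382_at measured 12.90 and 12.69 in the knockout and 12.77 and 12.76 in wild type, and 1415923_at measured 12.61 and 12.45 in the knockout and 12.52 and 12.49 in wild type. In both, and in 1435383_x_at, the first knockout array was the highest of the 4 arrays and the second the lowest. In 1437853_x_at the second knockout array was the highest, at 12.67 and 12.75 in the knockout and 12.67 in both wild-type arrays. The 3 dim Ndn sets, at mean levels of 3.54 to 4.54, had differences of 0.13 to 0.24, and their signal cannot be assigned to Ndn with certainty at those levels.

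**Figure D3:**
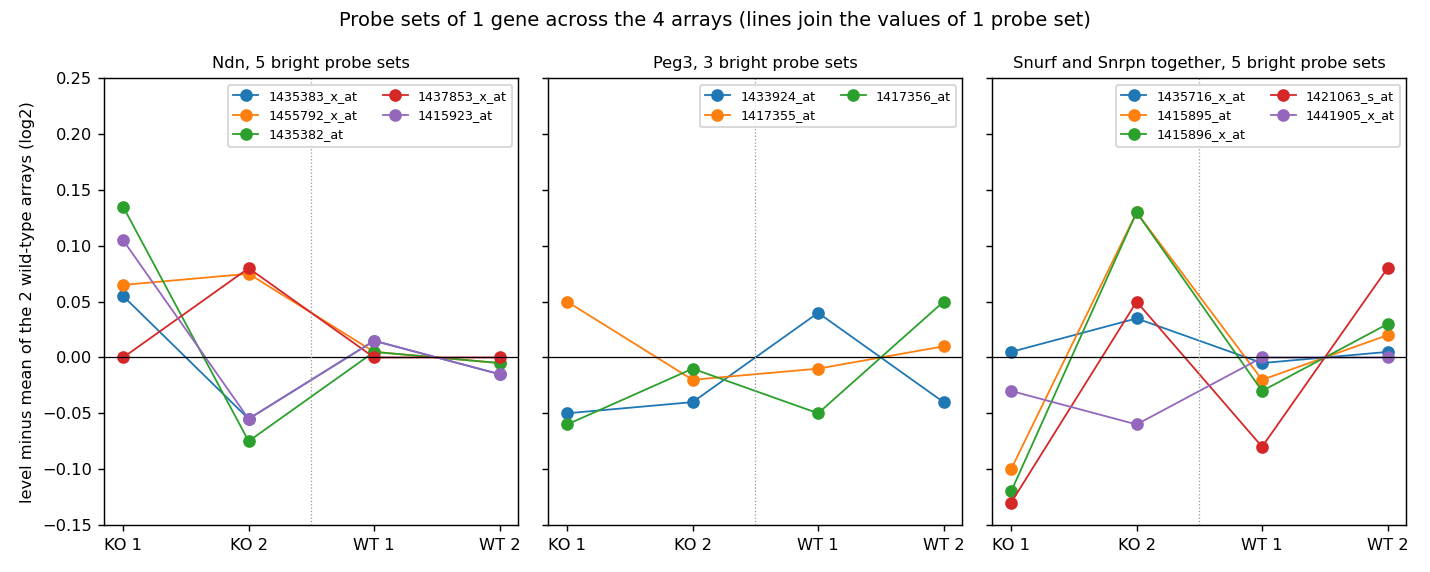
RMA level minus the mean of the 2 wild-type arrays, on the log2 scale (y axis), in the 2 knockout arrays and the 2 wild-type arrays (x axis), for the bright probe sets of Ndn, of Peg3 and of the joint Snurf and Snrpn transcript. Each line joins the values of 1 probe set; 3 Ndn sets are highest in the first knockout array, 3 joint sets are lowest there, and the genotypes overlap in the Peg3 sets.

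Magel2 encodes a second MAGE-family protein, which works with the ubiquitin ligase Trim27 in endosomal sorting, and it is the neighbour of Ndn. Its 1 probe set, 1417217_at, measured 7.69 and 7.78 in the knockout arrays, against 7.65 and 7.70 in the wild-type arrays. Here 1 knockout value fell inside the wild-type range and the other above it, at a difference of 0.060 (SE 0.076). Among 15 measured MAGE relatives and partners 0 passed, 10 had positive and 4 negative differences, and the median was 0.020. Nsmce3, a MAGE protein of the SMC5 and SMC6 complex, was at 0.14 (SE 0.070), the deubiquitinase Usp7 at 0.085 (SE 0.069), the WASH complex subunit Washc4 at 0.085 (SE 0.079) and Mageh1 at 0.080 (SE 0.080).

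Snrpn encodes SmN, a neuronal form of the Sm proteins that build the spliceosome, and its main transcript also encodes Snurf. The 1 probe set that names Snrpn alone, 1432096_at, measured 7.21 and 7.41 in the knockout arrays, against 7.24 and 7.27 in the wild-type arrays. The knockout arrays lay on either side of the wild-type arrays, at a difference of 0.055 (SE 0.095). A further 6 probe sets name Snurf and Snrpn together and cannot be assigned to either. Of these, 5 were bright with differences of -0.045 to 0.020, and 0 passed. In 2 of the joint sets the knockout mice lay on either side of wild type: 1415896_x_at measured 12.41 and 12.66 in the knockout arrays, against 12.50 and 12.56 in the wild-type arrays, and 1415895_at measured 12.45 and 12.68 in the knockout and 12.53 and 12.57 in wild type. In both, the first knockout array was the lowest and the second the highest. Only 1441905_x_at was separated, at 10.54 and 10.51 in the knockout and 10.57 in both wild-type arrays.

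Of 13 measured genes of the Sm core, the U snRNP proteins and their assembly factors 0 passed, and the median was 0.015. Snrpc, of the U1 particle, was at 0.27 (SE 0.080), Snrpd3, an Sm core protein, at 0.21 (SE 0.12), Snrpb2, of the U2 particle, at 0.14 (SE 0.084) and the assembly factor Gemin2 at -0.13 (SE 0.088). Other genes of the Prader-Willi domain were read from the imprinted lists. Mkrn3, a RING-finger gene beside Magel2 and expressed from the paternal allele, measured 6.12 and 6.18 in the knockout arrays, against 5.78 and 5.90 in the wild-type arrays, a difference of 0.31 (SE 0.081) from a dim level. Ube3a, a ubiquitin ligase expressed from the maternal allele in neurons and named for its position after its values were seen, was at 0.030 (SE 0.080). Peg12, named likewise, was at 0.095 (SE 0.14) near the bottom of the table. Atp10a, also named likewise, measured 6.90 and 6.91 in the knockout arrays, against 6.96 and 6.97 in the wild-type arrays. It was separated downward, at -0.060 (SE 0.068).

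Grb10 encodes an adaptor that binds the insulin and IGF1 receptors and dampens their signal, and in mice it is expressed from the paternal allele in neurons and from the maternal allele in most other tissues. Its bright probe set, 1425458_a_at, measured 9.82 and 9.81 in the knockout arrays, against 9.79 and 9.84 in the wild-type arrays, with equal means and an interval of -0.18 to 0.18. The knockout values lay inside the wild-type range. The dim sets measured 6.20 and 5.90 in the knockout and 6.08 and 6.00 in wild type for 1430164_a_at, and 4.62 and 4.52 in the knockout and 4.62 and 4.72 in wild type for 1425457_a_at, with overlapping or touching values in both. The array reads both alleles, so neuronal and other Grb10 RNA were not told apart. Of 19 measured genes of insulin and IGF signalling 0 passed and the median was 0, with Igfbp2 at 0.18 (SE 0.082), the receptor substrates Irs4 at 0.14 (SE 0.081) and Irs1 at -0.10 (SE 0.077), and the transcription factor Foxo1 at 0.13 (SE 0.076).

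Impact, on chromosome 18, encodes an inhibitor of the stress kinase GCN2, acts by binding the GCN2 partner GCN1, and is abundant in neurons. Its bright probe set 1415911_at measured 12 and 12.08 in the knockout arrays, against 11.98 and 11.99 in the wild-type arrays. The genotypes were apart by 1 step of the rounding, at a difference of 0.055 (SE 0.073). Probe set 1446750_at measured 7.63 and 7.41 in the knockout and 7.67 and 7.43 in wild type, and 1446751_s_at measured 6.73 and 6.85 in the knockout and 7.08 and 6.73 in wild type. Both overlapped, at -0.030 (SE 0.13) and -0.12 (SE 0.14), so the 3 Impact sets did not give 1 direction.

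Genes of the GCN2 branch, which cells switch on when amino acids run short, were read beside Impact. Of 13 measured, 0 passed, and 9 had positive and 4 negative differences with a median of 0.080. In 7 both knockout arrays lay above both wild-type arrays and in 2 below, where 15.5% of all genes were separated upward and 12.8% downward. Atf4, the transcription factor of the branch, measured 11.28 and 11.40 in the knockout arrays, against 11.05 and 11.05 in the wild-type arrays, a difference of 0.29 (SE 0.079). Its targets Chac1, Trib3 and Asns were at 0.62 (SE 0.12), 0.33 (SE 0.089) and 0.24 (SE 0.090). The list did not give 1 direction, as shown by 3 genes named after their values were seen. Ddit3, a further target of Atf4, measured 8.86 and 8.99 in the knockout arrays, against 9.04 and 9.13 in the wild-type arrays, a difference of -0.16 (SE 0.085) with no overlap. Eif2ak4, which encodes GCN2 itself, was separated downward at -0.12 (SE 0.069), and the cystine transporter Slc7a11 was at -0.12 (SE 0.12) with overlapping genotypes.

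The wider set of imprinted genes showed no call either. In a list drawn up as other genes expressed from the paternal allele, 18 of 23 were measured. Of these, 12 had positive and 5 negative differences, 4 were separated upward and 3 downward, and the median was 0.022. Besides Igf2 and Mkrn3, the translation factor relative Mcts2 was at 0.22 (SE 0.072). The zinc-finger gene Klf14, at -0.15 (SE 0.078) and separated downward, is known for expression from the maternal allele. Copg2, named after its values were seen, is also known for maternal expression in the mouse. It was at -0.035 (SE 0.081) with overlapping genotypes. The counts and median of this list are therefore not those of paternal genes alone, and the maternal list below lacks Klf14 and Copg2. In a list drawn up as genes expressed from the maternal allele, with the noncoding Meg3 included, 29 of 32 were measured. Of these, 15 had positive and 14 negative differences, 0 were separated upward and 3 downward, and the median was 0.0050. Whether the genes of either list are imprinted in adult brain was not checked. The transporter Slc22a18 was at -0.13 (SE 0.071), the actin regulator Cobl at 0.10 (SE 0.11) and the potassium channel Kcnq1 at 0.12 (SE 0.14), with Meg3 as given above. These are counts beside 15.5% of all genes separated upward and 12.8% downward, and the difference between the paternal and the maternal set was not tested.

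Genes that set or keep imprints were also without a call, at 0 of 20 measured in either direction and a median of 0.030. Dnmt3l, a cofactor of new methylation in germ cells, was at 0.32 (SE 0.090) from a dim level, the demethylating enzyme Tet1 at -0.20 (SE 0.10), the insulator protein Ctcf at 0.12 (SE 0.076) and the maintenance methyltransferase Dnmt1 at 0.11 (SE 0.087).

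**Figure D4:**
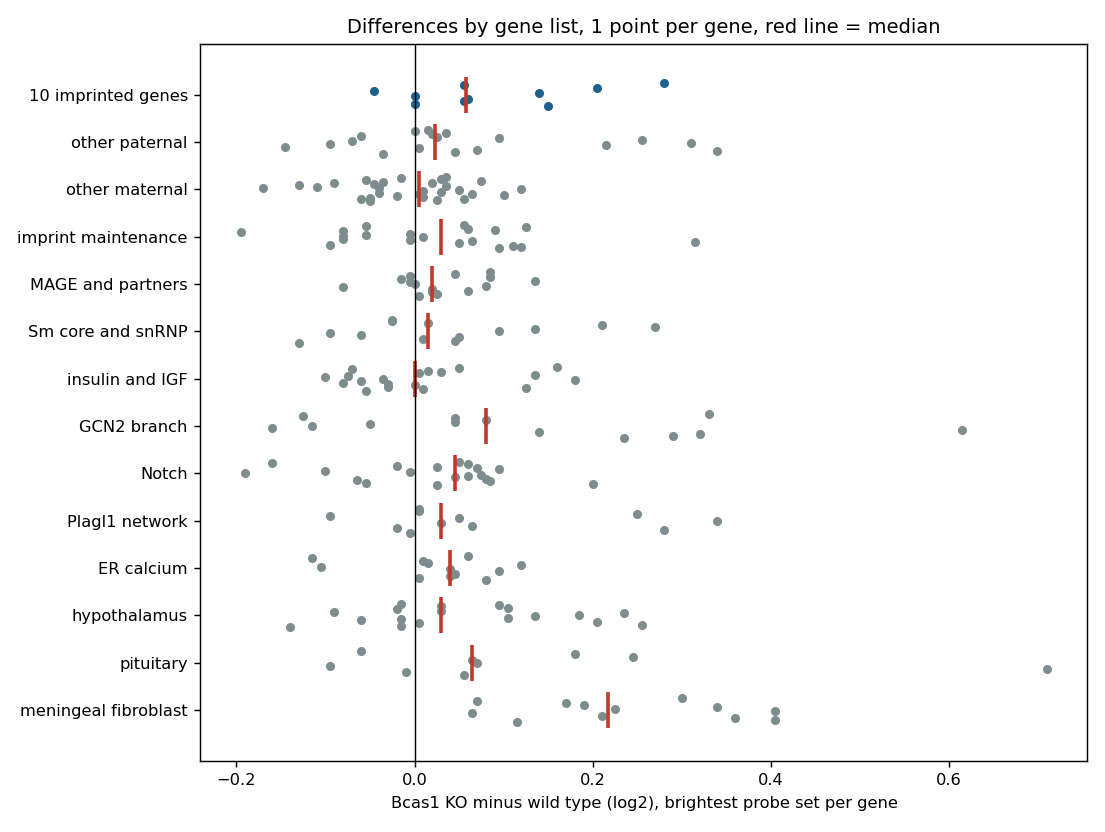
Difference between Bcas1 knockout and wild type on the log2 scale (x axis) of the brightest probe set of each gene, by gene list (y axis), with 1 point per gene and the median as a red line. The 10 imprinted genes have a median of 0.058, the GCN2 branch 0.080 and the meningeal markers 0.22. The lists drawn up as other paternal and other maternal genes have 0.022 and 0.0050, with the maternally expressed Klf14 and Copg2 in the former.

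Several of these genes are known for strong expression in the hypothalamus, so markers of that region and of other tissues were set beside them. The 18 measured hypothalamic markers averaged 7.20 and 7.37 in the knockout arrays, against 7.19 and 7.27 in the wild-type arrays, and overlapped between the genotypes. Pmch, the precursor of melanin-concentrating hormone, measured 10.62 and 10.65 in the knockout and 10.67 and 10.64 in wild type, and Oxt, oxytocin, measured 9.01 and 9.14 in the knockout and 9.02 and 9.07 in wild type. The median differences of the other brain lists were -0.035 for cortical neurons, 0.035 for striatum, 0.020 for monoaminergic neurons, -0.047 for cerebellum, 0.060 for oligodendrocytes, -0.0025 for astrocytes, -0.010 for microglia, 0.045 for ependyma, 0.075 for choroid plexus and 0.063 for vessels. The 9 measured blood markers, of which only 2 were bright, had a median of 0.22. Their mean level was 5.82 and 6.21 in the knockout arrays, against 5.67 and 5.54 in the wild-type arrays. Differences in that list ran from 0.010 for the globin gene Hba-a1 to 1.3 for the neutrophil gene S100a9, both dim and named after their values were seen. The part of any of these tissues in the levels of the imprinted genes was not tested. Without the second knockout array, which stood apart in the nasal markers, the differences of the 5 genes separated by brightest probe set were 0.27 for Plagl1, 0.27 for Zim1, 0.18 for Dlk1, 0.22 for Nnat and 0.015 for Impact. Their sign was fixed by the separation, so it adds nothing. For Impact the difference with all arrays was 0.055, and for Nnat it was 0.060 without the first knockout array.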

How the data were processed

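Expression was measured in brain RNA of 2 BCAS1 KO and 2 wildtype mice on 1-colour Affymetrix arrays, 1 array per mouse. Per the labels' protocols, biotin-labelled RNA was made from 100 ng of total RNA with a 3' IVT Express kit. The deposited table holds log2 levels made by the authors, and the submitters' processing notes name RMA for them. Its software version and settings are not given in the labels. Values carry 2 decimals.

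The 64 control probe sets were left out of 45101. Genes were named from the platform annotation, in which 34945 of the 45037 remaining probe sets name 1 gene, 932 several and 9160 none here. Entrez numbers in the RefSeq gene table (GRCm38.p6) changed 0 symbols. A gene in a list was read from its brightest probe set. The genotypes were compared over the whole table with limma (version 3.58.1, in R 4.3.3), using its lmFit and eBayes functions. P-values were two-sided and adjusted by Benjamini-Hochberg over the table, with a threshold of 0.05. It had 2 residual and 2.74 prior degrees of freedom and was tested on simulated data. Depth does not apply to arrays, and their number limits the precision.

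The members and the 25 gene lists were chosen with earlier results of these data known. All member probe sets are named. The rule for named genes took up to 4 of the smallest p from each pathway list, up to 3 of the highest level from each of 15 marker lists, and Bcas1. Not every such gene is printed. Alternatives were centred arrays, repeated quantile normalization, a level filter, trended robust variance, no moderation, a replicate block, leaving out each array, averaging probe sets per gene, and adding probe sets that name several genes.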

Additional observations from a re-analysis of the deposited data

How the results depend on the processing

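Over 34 probe sets, the 28 members and the 6 naming Snurf and Snrpn together, 0 were called under any alternative, and the lowest adjusted p in limma or the unmoderated fit was 0.573. Over all probe sets, calls higher in the knockout numbered 0 except for 35 without moderation. Calls lower in the knockout numbered 2, and became 1 above the median level, 10 with the trended robust variance, 28 without moderation, 0 with the replicate block and 0 to 0 with any array left out. In 75 probe sets the rounded values were equal within each genotype, and these have no p without moderation. List genes gave 0 calls under every alternative.

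The count of 10 member probe sets separated upward was 6 above the median level, where fewer probe sets are counted, and 10 to 16 with an array left out. The count of 1 separated downward was 0 and 4 to 8 in the same way, since 1 array overlaps 2 others less often by construction. Centring and quantile normalization left both counts at 10 and 1.

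Differences near 0 changed sign with an array left out. Their ranges were -0.14 to 0.16 for Grb10 1430164_a_at, -0.15 to 0.090 for Impact 1446750_at, -0.29 to 0.060 for Impact 1446751_s_at, -0.055 to 0.10 for Ndn 1415923_at, -0.075 to 0.14 for Ndn 1435382_at, -0.020 to 0.050 for Peg3 1417355_at, -0.085 to 0.015 for Peg3 1417356_at, -0.14 to 0.18 for Peg3 1447732_x_at and -0.045 to 0.16 for Snrpn 1432096_at. For the joint Snurf and Snrpn sets they were -0.10 to 0.13 for 1415895_at, -0.12 to 0.13 for 1415896_x_at, -0.13 to 0.050 for 1421063_s_at and -0.010 to 0.020 for 1460075_x_at, which was also -0.0062 after repeated quantile normalization. No other member probe set changed sign, apart from the Ndn and Grb10 sets with equal means. The cause of these sign changes was not tested beyond the arrays left out.

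Whether the numbers in the titles stand for pairs of mice cannot be told from these values. Deviations of same-numbered arrays correlated at 0.241, but with only 2 pairs this cannot decide it. The replicate block gave 0 calls over all probe sets, against 2 without it. That fit has fewer residual degrees of freedom, so the loss of calls cannot decide it either. Signal over background limits Zim1 and the other dim sets, for which no detection calls were used here.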
